A study of Mus musculus with 2 samples.

Results

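The 10 genes described here belong to the Bcl2 family, whose proteins decide at the mitochondrial outer membrane whether a cell lives or dies. They were taken as all array probes whose name was one of the 10 symbols: 4 survival genes (Bcl2, Bcl2l1, Bcl2l2 and Mcl1) and 6 death genes (Bcl2l11, Bid, Bad, Bak1, Bik and Bmf). They held 12 probes of the 31920 gene probes and were 10 of the 18005 genes on the array, with 6 probes for the survival genes and 6 for the death genes. Liver RNA came from 3-month-old Wip1 KO mice and wild-type (WT) mice, 24 h or 36 h after partial hepatectomy, in which part of the liver is cut away and the rest grows back. All 4 RNAs thus came from operated animals. Wip1, encoded by Ppm1d, is a phosphatase that switches off p53 and other parts of the DNA damage response. Each time had 1 array, on which Wip1 KO RNA carried the dye Cy5 and WT RNA the dye Cy3. The labels do not give the strain, the sex, the design of the KO allele or the number of animals behind an RNA. With 1 array a time there was no replicate and no test, and genotype and dye cannot be told apart.

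The survival proteins bind and hold their death-promoting relatives. Bak1, with its relative Bax, forms the pores that release cytochrome c, while the BH3-only proteins (Bcl2l11, also called Bim, Bid, Bad, Bik and Bmf) act upstream by occupying the survival proteins or by activating the pore formers. In hepatocytes, Mcl1 and Bcl2l1 (Bcl-xL) are the survival members known to be needed, and Bid carries the signal of the death receptors to the mitochondria. p53 is known to act on the family through genes such as Bax, Bbc3 and Pmaip1.

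The sequences just upstream of Mcl1 and Bad are shown because, of the survival and the death genes measured in all 4 RNAs, these stood furthest from a ratio of 1 between the genotypes at both times, Mcl1 above it and Bad below it. Both are RefSeq promoters of build GRCm38.p6, 250 bases before a start on the plus strand, at chr3:95658471-95658720 for Mcl1 and chr19:6941611-6941860 for Bad, and the capitals mark each GC box, GGGCGG read on either strand.
Mcl1: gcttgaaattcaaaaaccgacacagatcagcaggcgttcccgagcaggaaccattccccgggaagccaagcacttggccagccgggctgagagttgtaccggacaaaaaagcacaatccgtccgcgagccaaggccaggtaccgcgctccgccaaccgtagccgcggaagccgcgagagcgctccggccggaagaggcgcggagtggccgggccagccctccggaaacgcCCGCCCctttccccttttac
Bad: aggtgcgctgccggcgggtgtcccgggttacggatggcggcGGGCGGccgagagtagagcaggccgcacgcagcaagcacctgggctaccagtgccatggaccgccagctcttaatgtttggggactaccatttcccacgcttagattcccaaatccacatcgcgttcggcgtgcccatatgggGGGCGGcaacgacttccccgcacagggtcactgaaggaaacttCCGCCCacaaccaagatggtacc
The Mcl1 stretch held 1 GC box and had a GC content of 64.4%, and the Bad stretch held 3 and had 62.8%. The table lists another promoter of Bad, not shown, which held 0 GC boxes and 1 CCAAT box. Promoters were found for 9 of the 10 genes, 15 promoters in all. A GC box lay in 7 of the 15, those of Bad, Bcl2, Bcl2l11, Bcl2l2, Bid and Mcl1, against 32.7% of 32851 mouse promoters of the same length. The CCAAT box was in 5 of the 15, against 33.8% of all. The FOXO motif GTAAACA was in 1, of Bcl2l11, against 3.17% of all. The motif TGACGTCA (1.55% of all promoters), the STAT motif TTCNNNGAA (7.02%) and the E-box CACGTG (6.02%) were in 0 of the 15. The motifs were searched on both strands, and a match describes these letters only.

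A probe was called above background in an RNA when its foreground intensity exceeded the local background by more than 2 SDs of that background, and a member counted as measured in a comparison when both RNAs were above it. At 36 h, 31.1% of gene probes were above background in Wip1 KO and 36.8% in WT. At 24 h the shares were 33.2% in Wip1 KO and 41.4% in WT. The SD of the log2 ratio of 4 control genes, spotted 48 times each, was 0.115 at 24 h and 0.154 at 36 h. Different probes of 1 gene differed with an SD of 0.265 at 24 h and 0.262 at 36 h. Both describe error within an array and leave out the spread between animals. Ppm1d was below background in all 4 RNAs, so the array gave no check of the KO label. At 36 h, Elovl3 was 52.2-fold higher and the brightest A1bg probe 84.6-fold lower in Wip1 KO. Both genes are known to differ between male and female mouse livers. The WT Elovl3 spot at 36 h stood 2.09 background SDs above background, close to the limit of 2. At 24 h Elovl3 was not above background in either RNA, and the same A1bg probe had a log2 ratio of -2.05. All 9 hepatocyte markers on the array were above background in every RNA, and their summed level was 303953 in Wip1 KO and 169097 in WT at 36 h, and 279744 in Wip1 KO and 190476 in WT at 24 h (linear scale, arbitrary units). Ttr and Trf, 2 of these markers, were at the scanner's ceiling in Wip1 KO at both times, so the Wip1 KO sums are lower limits. The hepatocyte markers' part in the members' values was not tested. In bulk RNA, a change in the number of cells of a type and a change in RNA per cell cannot be told apart.

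Of the 12 member probes 6 were too dim for this array. Both Bcl2 probes, Bcl2l1 probe M400010262, Bcl2l11, Bik and Bmf were below background in all 4 RNAs. The other Bcl2l1 probe, M300000912, was above it in WT only, with a net intensity (foreground minus background) of 73 in Wip1 KO and 110.5 in WT at 36 h, and 98 in Wip1 KO and 94 in WT at 24 h. At 24 h that probe stood 1.88 background SDs above background in Wip1 KO and 2.004 in WT, beside the limit of 2. No fold between the genotypes was given for Bcl2l1. Mcl1, Bcl2l2, Bid and Bad were above background in all 4 RNAs, and Bak1 in all except Wip1 KO at 24 h. Levels of different probes cannot be set against each other, since probes differ in how strongly they bind.

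**Figure D1:**
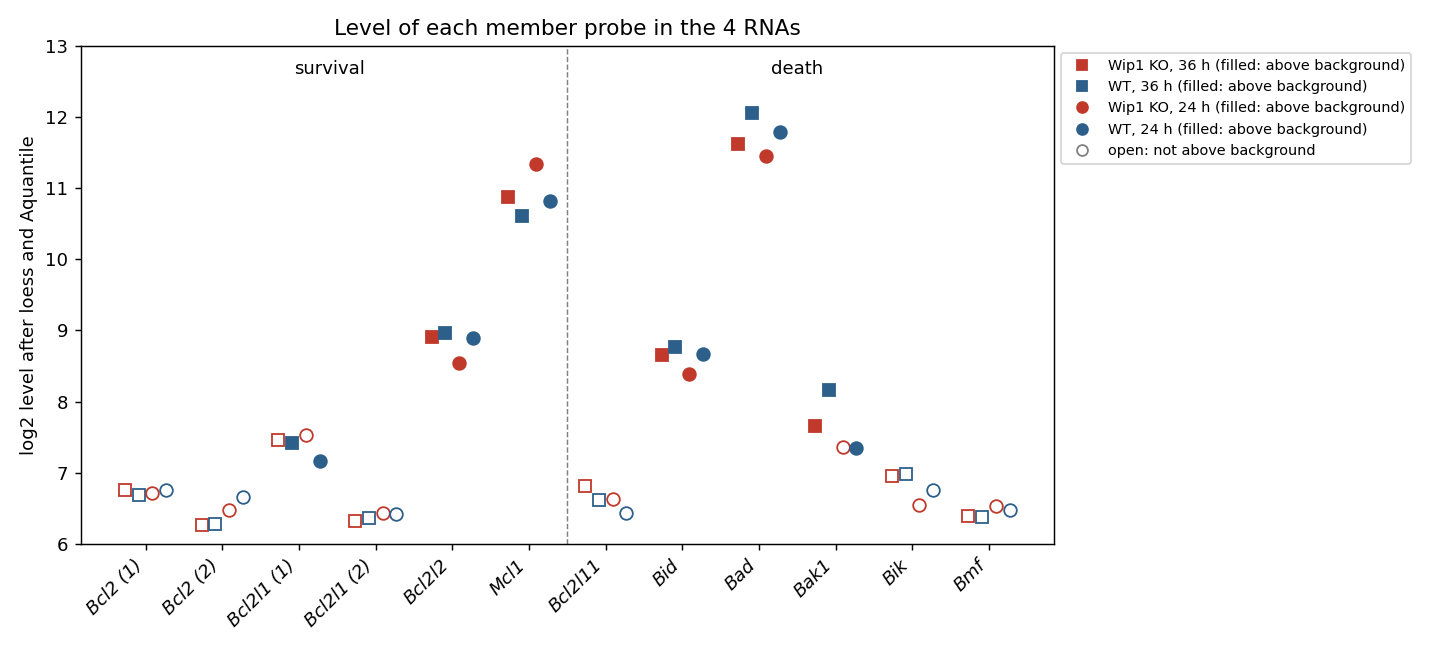
The log2 level (normexp, loess and Aquantile) of each of the 12 member probes in the 4 RNAs, 1 point an RNA, filled where above background. Mcl1, Bcl2l2, Bid and Bad were filled in all 4 RNAs, while Mcl1 was higher and Bad lower in Wip1 KO than in WT at both times, and levels of different probes are not comparable.

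The first comparison asked how the genotypes differed 24 h after the operation, and of the 12 member probes 4 were measured. Mcl1 was higher in Wip1 KO and the measured death genes, Bid and Bad, were lower, by less than 1.5-fold each. Mcl1, the short-lived survival protein, had a net intensity of 2370.5 in Wip1 KO and 1856.5 in WT. After normalisation its log2 ratio was 0.52, or 1.43-fold higher in Wip1 KO, and 14.8% of measured probes lay further from 0. That difference was larger than the SD between probes of 1 gene.

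Bcl2l2, the survival protein Bcl-w, had 281 in Wip1 KO and 455.5 in WT, a log2 ratio of -0.34 or 1.27-fold lower. The 2 measured survival genes thus lay on opposite sides of 0, with a median of 0.09 where the median of all measured probes was 0.01.

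Of the death genes, Bad, which binds Bcl2l1 and is held in the cytosol by 14-3-3 proteins once phosphorylated, had a net intensity of 2570 in Wip1 KO and 3654 in WT. Its log2 ratio was -0.34, or 1.26-fold lower in Wip1 KO, and 31.9% of measured probes lay further from 0. The Bad spot at 24 h and the Bak1 spot at 36 h carried a quality flag other than 100, whose meaning is not given. Bid, which caspase-8 cuts into its active form, had 243.5 in Wip1 KO and 379.5 in WT, a log2 ratio of -0.27 or 1.21-fold lower. The Bid difference was close to the SD between probes of 1 gene, and the median of the 2 measured death genes was -0.31. The pore former Bak1 was not above background in Wip1 KO, at 79, and was above it in WT, at 115.5, and no fold was given.

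No member reached 1.5-fold at 24 h (0 of 4 measured), where 11.4% of the 10479 measured gene probes did. Read against that share, the count marks out none of the 4.

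At 36 h 5 members were measured. Mcl1 was again higher and Bid and Bad again lower in Wip1 KO, and Bak1, not measured at 24 h, was lower. Mcl1 had a net intensity of 1660 in Wip1 KO and 1554 in WT, a log2 ratio of 0.26 or 1.20-fold higher. This was the size of the SD between probes of 1 gene, and 46.0% of measured probes lay further from 0. Bcl2l2 had 356 in Wip1 KO and 448.5 in WT, a log2 ratio of -0.07 or 1.05-fold lower, and its sign changed with the processing (-0.13 to 0.02). The survival median was 0.10, beside 0.03 over all measured probes.

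Bad had a net intensity of 2916 in Wip1 KO and 4422 in WT. Its log2 ratio was -0.44, or 1.35-fold lower in Wip1 KO, with 25.3% of measured probes further from 0. Bak1 had 97 in Wip1 KO and 223 in WT, a log2 ratio of -0.50 or 1.41-fold lower, with 20.3% further. Its Wip1 KO spot stood 2.37 background SDs above background, close to the limit of 2. With plain background subtraction or with the mean foreground the Bak1 difference passed 1.5-fold, and across the settings tried its log2 ratio ran from -0.73 to -0.41. Bid had 285 in Wip1 KO and 379 in WT, a log2 ratio of -0.11 or 1.08-fold lower, inside the spread between probes. The death median was -0.44.

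At 36 h 0 of 5 measured members reached 1.5-fold, where 15.1% of the 9733 measured gene probes did. No member reached 2-fold at either time, a size that 4.94% of measured probes reached at 36 h and 2.62% at 24 h. Between the times it was 0 members again, where 6.73% of measured probes reached it in Wip1 KO and 3.31% in WT.

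**Figure D2:**
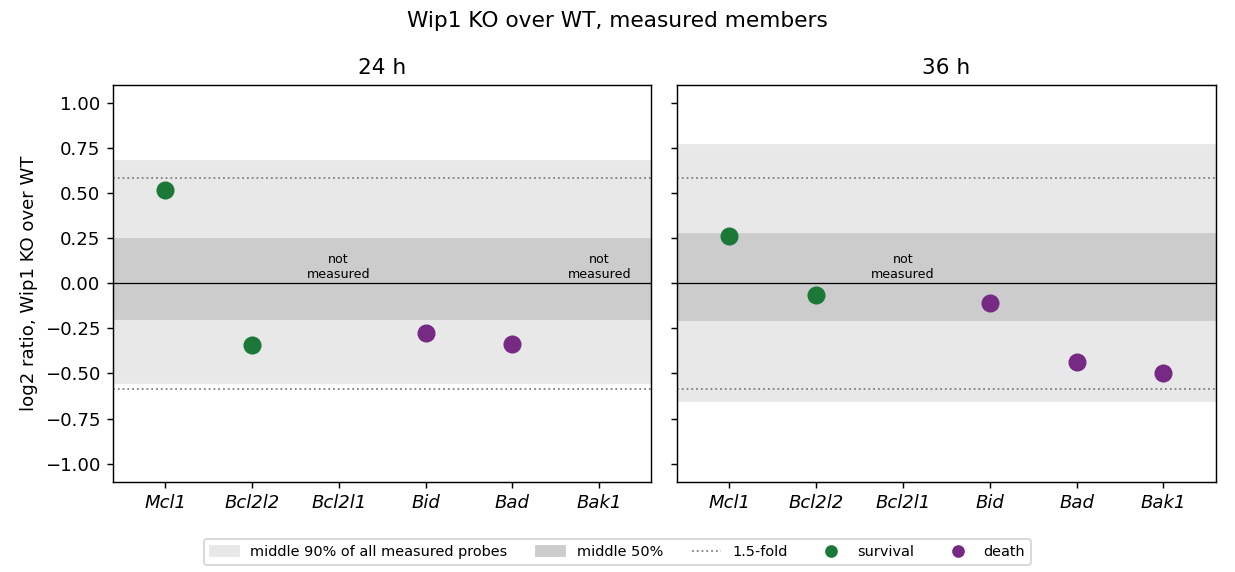
The log2 ratio of Wip1 KO over WT for the members measured at either time, 1 array a panel, with the middle 50% and 90% of all measured probes shaded and 1.5-fold dotted. Mcl1 lay above 0 and Bid and Bad below 0 in both panels, Bak1 was measured at 36 h only, and no member passed 1.5-fold.

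The distance between Mcl1 and Bad, chosen after their values were seen, varied little with the processing. The log2 ratio of Mcl1 minus that of Bad was 0.70 at 36 h (0.67 to 0.76 over the settings) and 0.85 at 24 h (0.79 to 0.89). The distance between Mcl1 and Bid ran from 0.30 to 0.43 at 36 h and from 0.69 to 0.89 at 24 h. That between Mcl1 and Bcl2l2, both survival genes, was 0.33 at 36 h (0.28 to 0.37) and 0.86 at 24 h (0.73 to 0.98). At 24 h Mcl1 thus stood about as far from its survival relative as from Bad. No replicate was at hand to give these distances an error.

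Whether the genotype ratio differed between the times was described for the 4 members measured in all 4 RNAs. The ratio at 36 h minus that at 24 h was 0.28 for Bcl2l2, -0.25 for Mcl1, 0.17 for Bid and -0.10 for Bad. Of the 9106 probes measured in all 4 RNAs, 54.8%, for Bcl2l2, to 82.2%, for Bad, moved further. These moves were ordinary for the array.

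The other comparisons set 36 h against 24 h within a genotype, which sets RNAs on different arrays against each other after average brightness was made equal. They use the same 4 RNAs as the genotype ratios and are no separate evidence. In Wip1 KO livers Mcl1 was lower and Bcl2l2, Bid and Bad higher at 36 h. Mcl1 had a net intensity of 1660 at 36 h and 2370.5 at 24 h and a log2 ratio of -0.46, or 1.38-fold lower at 36 h, with 31.0% of measured probes further from 0. Bcl2l2 was 1.28-fold higher at 36 h (log2 ratio 0.35), Bid 1.20-fold higher (0.26) and Bad 1.12-fold higher (0.16). The Mcl1 value was larger than the SD of 0.365 between probes of 1 gene in this comparison, and the other 3 were not.

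In Wip1 KO, Bak1 was above background at 36 h only, with a net intensity of 97 at 36 h and 79 at 24 h, and no fold was given. No measured member reached 1.5-fold in Wip1 KO (0 of 4), where 21.2% of 9226 measured probes did. The medians were -0.05 for the survival genes and 0.21 for the death genes, beside 0.05 over all measured probes.

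In WT livers the pore former Bak1 was the 1 measured member of 6 past 1.5-fold, where 11.9% of 11239 measured probes were. Its net intensity was 223 at 36 h and 115.5 at 24 h, a log2 ratio of 0.82 or 1.76-fold higher at 36 h, and 5.61% of measured probes lay further from 0. The value was larger than the SD of 0.318 between probes of 1 gene. It rested on a 24 h spot 2.76 background SDs above background, and with a limit of 5 SDs Bak1 was not measured. Under other background corrections its log2 ratio reached 1.22.

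The other members moved less in WT. Mcl1 had 1554 at 36 h and 1856.5 at 24 h, a log2 ratio of -0.21 or 1.16-fold lower at 36 h. Bad had 4422 at 36 h and 3654 at 24 h, a log2 ratio of 0.26 or 1.20-fold higher. Bcl2l1 probe M300000912, close to the background limit at both times, was 1.19-fold higher at 36 h (log2 ratio 0.25). Bid had a log2 ratio of 0.10 and Bcl2l2 of 0.08, the sign of the Bcl2l2 value changing with the processing. Mcl1 was thus lower, and Bad and Bid higher, at 36 h in both genotypes, with values in WT inside the spread between probes. The medians were 0.08 for the survival genes and 0.26 for the death genes, beside 0.03 over all measured probes.

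**Figure D3:**
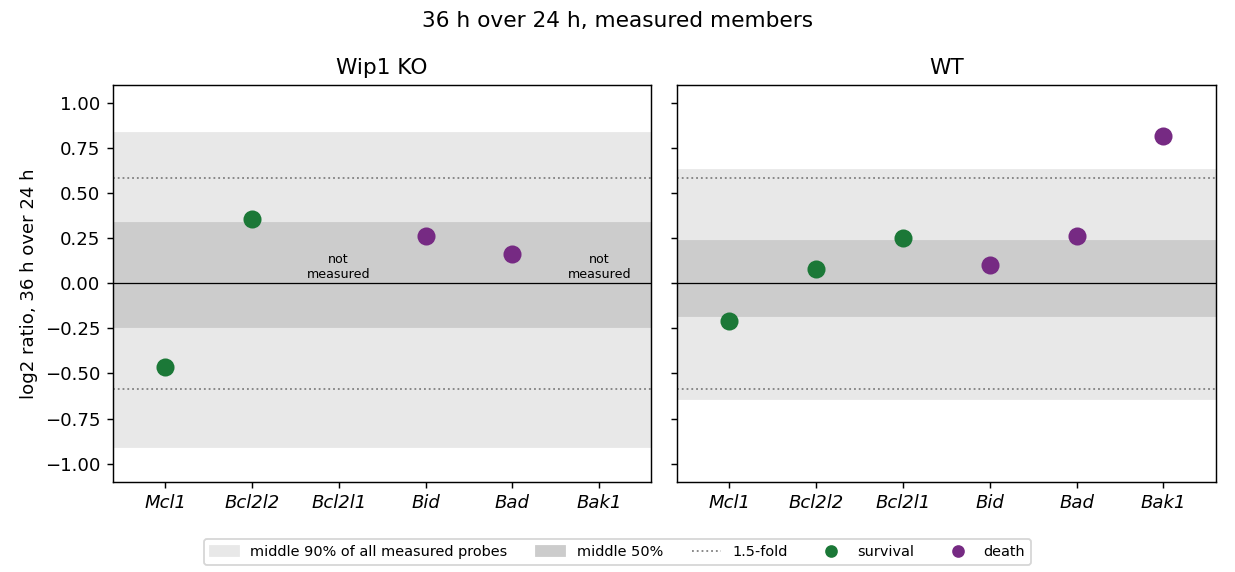
The log2 ratio of 36 h over 24 h in Wip1 KO (left) and WT (right) for the members measured in either genotype, with the middle 50% and 90% of all measured probes shaded and 1.5-fold dotted. Mcl1 lay below 0 and Bid and Bad above 0 in both genotypes, and only Bak1 in WT, at 0.82, passed 1.5-fold.

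The rest of the family and the Bnip genes were described together from a list of 18 genes. The array held 14 of them, each taken by its brightest probe. At 24 h 8 were measured, all with ratios above 0 (median 0.24, beside 0.01 over all genes). Of these, 1 was higher in Wip1 KO by 1.5-fold or more and 0 were lower, where 6.79% of the 7661 measured genes were higher and 4.26% lower. Bnip1 (0.02), Bcl2l13 (0.04) and Bax (0.09) were barely above 0. Median centring shifted the median of all measured probes by more than that, by -0.12. At 36 h 7 were measured (median -0.08, beside 0.03), and 0 were higher and 2 lower, where 8.70% of 7103 genes were higher and 5.87% lower. Bcl2a1c and Bax were the genes concerned. With median centring Bcl2a1c, at 0.47 at 24 h, and Bax, at -0.51 at 36 h, no longer passed, nor did Bcl2a1c at 24 h with the mean foreground (0.57).

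Bcl2a1c, a mouse Bcl2a1 copy, had a net intensity of 230 in Wip1 KO and 801.5 in WT at 36 h. It was 2.50-fold lower in Wip1 KO. At 24 h it had 659.5 in Wip1 KO and 486.5 in WT, 1.52-fold higher in Wip1 KO. The Bcl2a1 copies of the mouse are nearly identical, so the probe may read several of them. Bcl2a1a, with 2 probes on the array, was not measured at either time. Of the 9 neutrophil markers on the array 4 were measured. Their median log2 ratio was -0.40 at 36 h, with 4 of 4 below 0, and 0.37 at 24 h, with 3 of 4 above 0 and Prtn3 at -1.79. The summed level of all 9, also those not above background, was 4980.88 in Wip1 KO and 6421.36 in WT at 36 h. At 24 h it was 5181.85 in Wip1 KO and 4498.58 in WT. Ltf, Mpo and Csf3r were below background in all 4 RNAs, and the markers' part in the Bcl2a1c values was not tested.

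Bax, the pore-forming partner of Bak1 and a p53 target, had 878 in Wip1 KO and 1551 in WT at 36 h, a log2 ratio of -0.59 or 1.51-fold lower. At 24 h its log2 ratio was 0.09. Bax and Bak1 thus both had ratios below 0 at 36 h, where 53.8% of all measured probes lay above 0. The p53 targets Bbc3 (Puma) and Pmaip1 (Noxa) were not measured at either time. Bnip2 had ratios of 0.40 at 36 h and 0.50 at 24 h, and the mitophagy receptor Bnip3l of -0.08 at 36 h and 0.45 at 24 h.

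Of 24 proteins that bind the family, 20 were measured at each time. By 1.5-fold or more, 0 were higher at 24 h and 1 lower: Dynll1, the dynein light chain that tethers Bim, at -0.71. At 36 h 1 was higher, the calcium channel Itpr3 at 0.69 (0.54, short of 1.5-fold, with the mean foreground), and 1 lower, Ywhah, a 14-3-3 protein of the group that holds phosphorylated Bad, at -0.80. Over all measured genes, 6.79% were higher and 4.26% lower by 1.5-fold or more at 24 h, and 8.70% higher and 5.87% lower at 36 h. The counts in the lists that follow stand beside the same shares. The medians of the list of partners were 0.02 at 36 h and 0.09 at 24 h, near those of all genes.

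Of 25 regulators 17 were measured at 24 h. Huwe1, a ubiquitin ligase that marks Mcl1 for breakdown, was 1.54-fold higher in Wip1 KO (log2 ratio 0.62). It no longer passed 1.5-fold with median centring, print-tip loess, the mean foreground or the ratios of the authors' deposited table (0.47 to 0.57). Pim3, of a kinase family that phosphorylates Bad, was 1.75-fold lower in Wip1 KO (-0.81). At 36 h 14 were measured and 1 passed: Trp53, the gene of p53, had 90 in Wip1 KO and 259 in WT and was 1.66-fold lower (-0.73). The dim Wip1 KO spot made its value depend on the background correction, and plain subtraction gave -1.06. The list medians were 0.04 at 36 h and -0.08 at 24 h.

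Downstream of the mitochondria, 15 of 20 genes of the apoptosome, the caspases and their inhibitors were measured at 24 h and 13 at 36 h. Dffa, the inhibitor of the nuclease that cuts DNA in dying cells, stood furthest from 0 among all 5 lists. It had 216 in Wip1 KO and 1749.5 in WT at 36 h, 5.53-fold lower in Wip1 KO (log2 ratio -2.47). At 24 h it had 196 in Wip1 KO and 1456 in WT, 4.80-fold lower (-2.26). The value comes from 1 of its 2 probes, and the other probe was not measured. With a limit of 5 SDs Dffa was not measured at 36 h. Birc5, the inhibitor-family protein survivin, which dividing cells make, had 953 in Wip1 KO and 3898 in WT at 36 h, 3.45-fold lower in Wip1 KO (-1.79), and 2246.5 in Wip1 KO and 1647 in WT at 24 h, 1.53-fold higher (0.61, or 0.49 and short of 1.5-fold with median centring). These 2 genes were those past 1.5-fold at each time, and the list medians were -0.09 at 36 h and -0.02 at 24 h.

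Of 14 death receptor and adaptor genes, upstream of Bid, 8 were measured at 24 h and 7 at 36 h. Fas, the receptor whose signal hepatocytes pass through Bid, had 968 in Wip1 KO and 1838.5 in WT at 24 h and was 1.60-fold lower in Wip1 KO (-0.68). At 36 h it had 1960 in Wip1 KO and 1998.5 in WT, a log2 ratio of 0.14. The receptor Tnfrsf1a had ratios of 0.34 at 36 h and -0.33 at 24 h. The list medians were 0.11 at 36 h and -0.19 at 24 h. Fadd and Cflar were not measured.

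**Figure D4:**
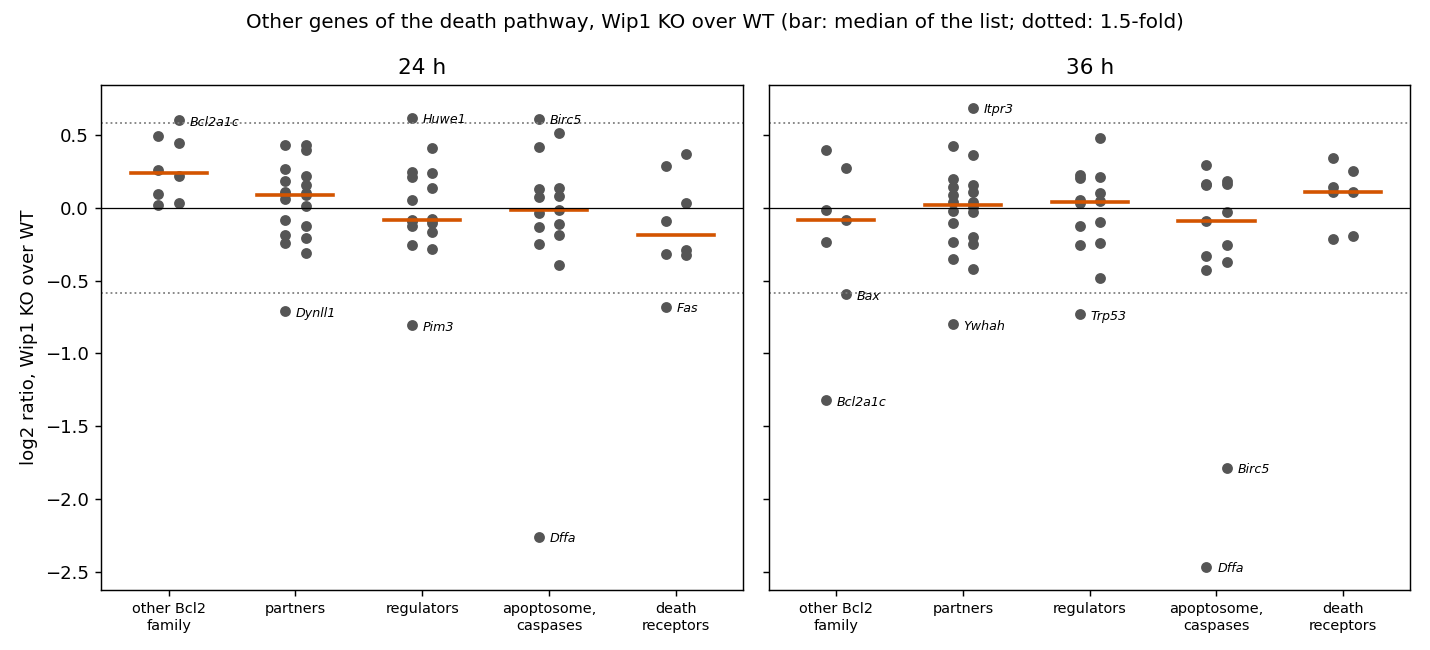
The log2 ratio of Wip1 KO over WT for the measured genes of the 5 lists, 1 point a gene by its brightest probe, with a bar at each list's median and 1.5-fold dotted. Dffa lay below -2 in both panels, Birc5 and Bcl2a1c lay above 1.5-fold at 24 h and below it at 36 h, and list medians stayed between -0.19 and 0.24.

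Between the times, the medians of the same lists ran from -0.28 to 0.20, and single genes passed 1.5-fold, where 20.0% of 6791 measured genes passed in Wip1 KO and 10.6% of 8178 in WT. In Wip1 KO, Fas was 1.97-fold and Tnfrsf1a 1.54-fold higher at 36 h, and the tumour necrosis factor receptor Tnfrsf1b was 1.59-fold lower. Print-tip loess put Tnfrsf1a, at 0.58 on the log2 scale, and median centring put Tnfrsf1b, at -0.58, just short of 1.5-fold. Birc5 was 2.22-fold lower at 36 h in Wip1 KO and 2.37-fold higher at 36 h in WT. Bcl2a1c was 2.29-fold lower at 36 h in Wip1 KO and 1.66-fold higher at 36 h in WT. The kinase gene Akt1, whose product phosphorylates Bad, was 1.69-fold lower at 36 h in Wip1 KO and 1.29-fold lower in WT by its brightest probe, while its other measured probe had log2 ratios of 0.05 in Wip1 KO and 0.14 in WT. In WT, the cell cycle factor E2f1 was 3.70-fold lower at 36 h by its brightest probe (log2 ratio -1.89), and its other measured probe was at -0.48. The brightest E2f1 probe also fell in Wip1 KO, from a net intensity of 715 at 24 h to 47 at 36 h. It was not above background there at 36 h, so no fold was given. The death receptor kinase gene Ripk1 was 1.77-fold lower at 36 h in WT.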

How the data were processed

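Liver RNA of Wip1 KO (Cy5) and WT (Cy3) mice was hybridised to 1 array a time. Per the file headers, the deposited scanner files hold raw median foreground and background intensities of each spot at 635 nm (Cy5) and 532 nm (Cy3), and a quality flag score whose meaning is not given. The authors also deposited 1 table of Wip1 KO to WT ratios on a linear scale, whose normalisation is not given in the sources used here. It names no probes, and its rows were matched by probe order (Pearson correlation with the log2 ratios 0.971 at 24 h and 0.974 at 36 h, across probes). The members and lists were chosen with earlier results of these data known.

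With limma 3.58.1 (R 4.3.3), background was corrected by normexp (offset 50), and a loess curve fitted to each array's gene probes, with no weight on controls, was taken off the log2 ratios. Channel levels were equalised between arrays by Aquantile. Background correction and loess were tested on simulated data, with changes set in bright probes only. Aquantile and the 36 h over 24 h values were not tested this way. Named genes were all members and, of each of 5 lists and 4 comparisons, up to 4 genes with the largest absolute log2 ratio. Genes of a list singled out beside these were chosen after their values were seen. Among them were Bax at 24 h and Bnip3l and Fas at 36 h. Alternatives were print-tip loess, median centring, other background corrections and offsets, mean foreground, a limit of 5 SDs, other scalings between arrays, the deposited ratios and, added after seeing the data, spots with flag 100 only. Python 3.11.15, numpy 2.4.6, pandas 2.3.3 and matplotlib 3.10.9 were used for the rest. The number of arrays, 2, limits the precision. An item withheld for evaluation is not reported here.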

Additional observations from a re-analysis of the deposited data

Results flagged for a closer look

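Birc5 and Bcl2a1c stood on opposite sides of no difference at the 2 times, each past 1.5-fold. The log2 ratio of Wip1 KO over WT was -1.79 at 36 h and 0.61 at 24 h for Birc5, and -1.32 at 36 h and 0.60 at 24 h for Bcl2a1c. With median centring neither gene passed 1.5-fold at 24 h (0.49 for Birc5 and 0.47 for Bcl2a1c), and with the mean foreground Bcl2a1c did not (0.57). With 1 array a time the difference between the times was not tested. Neither gene is among the 10 members. None of the measured members reached 1.5-fold at either time, so none could do this.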

How the results depend on the processing

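No paired analysis was possible because each time had 1 array, and no replicate could be left out. Of 173 values of the members under the alternatives, 171 moved by less than the SD between probes of 1 gene. The other 2 were Bak1 at 36 h over 24 h in WT, at 1.22 with plain background subtraction and 1.20 with no background correction. Of the 19 measured log2 ratios 17 kept their sign under every alternative run, and those of Bcl2l2 at 36 h and of Bcl2l2 between the times in WT did not. The count of members past 1.5-fold was 1 (Bak1) for Wip1 KO over WT at 36 h with plain background subtraction or the mean foreground, in place of 0. For 36 h over 24 h in WT it was 0 with the limit of 5 SDs or with flag 100 only, in place of 1, since Bak1 was then not measured. Of 732 values of the genes named from the lists 9 moved further (Dffa, Trp53 and E2f1), and 0 past 1.5-fold changed sign. Among those past 1.5-fold and printed, Birc5, Bcl2a1c and Huwe1 at 24 h, Bax and Itpr3 at 36 h, and Tnfrsf1a and Tnfrsf1b between the times in Wip1 KO dropped below it under at least 1 alternative. With the limit of 5 SDs some were not measured, among them Dffa, Trp53 and Bcl2a1c at 36 h and Bcl2a1c between the times in Wip1 KO. Median centring shifted the median of all measured probes by -0.12 at 24 h, and Mcl1 then stood at 0.39. In the authors' deposited table the ratio of Wip1 KO over WT was 1.24 at 36 h and 1.40 at 24 h for Mcl1, and 0.734 at 36 h and 0.806 at 24 h for Bad. Signal over background limits the other members: 6 of the 12 probes were below background in all 4 RNAs.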

Other observations

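Markers of other liver cells also differed between the RNAs, and their part in the values of the members was not tested. Each sum takes all markers of its list on the array, also those not above background. Bile duct markers had a summed level of 2924.33 in Wip1 KO and 4261.48 in WT at 36 h (4 of 8 markers measured, 0 of 4 above a log2 ratio of 0), and of 9085.92 in Wip1 KO and 3667.99 in WT at 24 h (6 measured, 6 above 0). Stellate cell and fibroblast markers summed to 9038.23 in Wip1 KO and 10031.3 in WT at 36 h (0 of 7 above 0), and to 16469.2 in Wip1 KO and 10923.7 in WT at 24 h (7 of 7 above 0). Kupffer cell and macrophage markers summed to 43073.2 in Wip1 KO and 40831.3 in WT at 36 h, and to 32121.7 in Wip1 KO and 39707.7 in WT at 24 h. Erythroid markers summed to 26612.2 in Wip1 KO and 34878.5 in WT at 36 h (1 of 3 above 0), and to 41008 in Wip1 KO and 20055.7 in WT at 24 h (3 of 3 above 0). Endothelial markers summed to 11186.3 in Wip1 KO and 8202.39 in WT at 36 h (7 of 9 above 0), and to 9112.98 in Wip1 KO and 8627.65 in WT at 24 h (5 of 9 above 0). Lymphocyte markers summed to 3028.99 in Wip1 KO and 2174.76 in WT at 36 h, where 2 of 12 were measured, Cd3g at a log2 ratio of 1.31 and Cd3d at -0.23, and to 2424.76 in Wip1 KO and 2352.75 in WT at 24 h. The lymphocyte markers Cd3e, Cd8a, Cd79a, Ms4a1 and Nkg7 were below background in all 4 RNAs.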
